A study of Mus musculus with 2 samples.

Results

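A set of 10 genes of the TNF (tumour necrosis factor) family that carry survival and lymphotoxin signals between lymphocytes and their tissue was followed through mouse parotid gland cells: the ligands Tnfsf13b, Tnfsf13, Cd40lg, Lta and Ltb and the receptors Tnfrsf13c, Tnfrsf13b, Tnfrsf17, Cd40 and Ltbr. They were chosen by name, and each matched 1 of the 48825 features, so 10 of 10 were present in both matrices. The glands came from wild-type female mice of the C3H strain. The IR group had received 6 Gy to the head and neck on each of 5 days, 30 Gy in total, at 6 to 10 weeks of age, and its glands were taken 10 months later. The control group was not irradiated. Cells of 2 mice were pooled into 1 droplet library per group, so neither group had a replicate, no test between groups was run, and irradiation, mouse and library cannot be told apart.

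After filtering, 3378 control cells (19068309 UMIs, unique tags that each mark 1 captured RNA molecule) and 5286 IR cells (20348028 UMIs) were kept, with a median of 2907.5 and 2461.5 UMIs per cell. The 2 libraries shared 12 barcodes, 3 of them among kept cells. Cells were clustered again for this work without the 10 genes, and clusters were named where their markers passed a rule, so every cell type below means cells like that type. Of the named classes, those the results turn on were B-cells (835 control and 833 IR cells), naive-like T-cells (795 and 2097), FoxP3+ and helper T-cells (177 and 461), effector CD8+ T-cells (220 and 393), plasma cells (8 and 33), macrophages (107 and 70), migratory dendritic cells (DCs; 26 and 47), stromal cells (33 and 18) and Etv1+ secretory cells (243 and 236). Classes of under about 50 cells a library give wide intervals. For each class and library, UMIs were added up and scaled to counts per 1000000 UMIs of that class (CPM). CPM without abundant genes, named where it moves a value, leaves out of the total the main secretory genes, antibody, mitochondrial and haemoglobin genes and Gm42418. Intervals in parentheses are 95% intervals that cover counting error only, not the spread between mice.

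BAFF, the product of Tnfsf13b, keeps mature B-cells alive through the BAFF receptor (Tnfrsf13c), and shares the receptor TACI (Tnfrsf13b) with APRIL (Tnfsf13). BCMA (Tnfrsf17) serves plasma cells. CD40 ligand (Cd40lg) on activated helper T-cells acts on CD40 of B-cells and antigen-presenting cells. Lymphotoxin alpha (Lta) is secreted alone or held at the lymphocyte surface by lymphotoxin beta (Ltb), and the surface complex acts on the lymphotoxin beta receptor (Ltbr) of stromal, epithelial and myeloid cells, a route known for organising lymphoid tissue and for NF-kB signalling. In salivary glands these signals are best known from the lymphoid infiltrates of autoimmune disease.

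Lta and Ltb lie on chromosome 17 on either side of Tnf (GRCm38; Ltb from 35194439 to 35196320 on the plus strand, Lta from 35203165 to 35205351 on the minus strand), with 3060 bases between Ltb and Tnf and 1157 between Tnf and Lta. Tnfrsf13c lies on chromosome 15 (82221743 to 82224369, minus strand). The 100 bases before the GENCODE start of Ltb, and before the RefSeq start of the other two, are shown because Ltb and Tnfrsf13c had the most UMIs of the 10 genes and lay on opposite sides of 1 in the IR over control ratio of B-cells. They were read from RefSeq promoter windows of build GRCm38.p6, run 5′ to 3′ on the gene's strand, and capitals mark a match to the NF-kB (kappaB) motif, searched on both strands.
Ltb, chr17:35194339-35194438 (+): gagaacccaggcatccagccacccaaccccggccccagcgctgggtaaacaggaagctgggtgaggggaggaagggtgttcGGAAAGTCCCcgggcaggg
Lta, chr17:35205352-35205451 (-): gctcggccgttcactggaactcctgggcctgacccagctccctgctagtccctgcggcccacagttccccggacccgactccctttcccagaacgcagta
Tnfrsf13c, chr15:82224381-82224480 (-): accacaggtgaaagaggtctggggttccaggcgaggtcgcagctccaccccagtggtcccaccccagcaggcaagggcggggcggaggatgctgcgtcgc
The match before Ltb lay 19 to 10 bases ahead of its annotated start. The motif was in 535 of 32851 promoter windows of 300 bases (1.63%), and among the 9 windows of the 8 genes with an entry it was found in that of Ltb alone. Cd40 and Cd40lg had no entry. The AP-1 motif TGANTCA, likewise on both strands, was in 7.81% of all windows and in those of Tnfsf13 and Tnfsf13b, and no window of the 10 genes held both motifs.

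Tnfsf13b RNA was found mainly in macrophages and stromal cells, at low counts. It had 23 UMIs in 3378 control and 30 in 5286 IR cells. Macrophages held 8 control UMIs, 32.1 CPM (13.8–63.2), and 11 IR UMIs, 53.9 CPM (26.9–96.5). Stromal cells held 8 UMIs, 37.9 CPM (16.4–74.7), and 5 UMIs, 55.1 CPM (17.9–128). The levels of macrophages and stromal cells did not differ beyond counting error (ratio 0.845, 0.277–2.58, in the control and 0.979, 0.314–3.60, in the IR cells), while macrophages exceeded B-cells 37.1-fold (7.41–359) in the control library. Endothelial cells had 0 UMIs in 79 control and 41 IR cells. The IR over control ratio was 1.68 in macrophages, with an interval from 0.616 to 4.82, so no difference was detectable at this depth.

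Tnfsf13 had 1 UMI in the control and 0 in the IR cells. Of its 1637 exonic bases, 983 are also exonic in Tnfsfm13, a readthrough gene on the same strand that joins it to its neighbour Tnfsf12, and counting could not assign reads there to one gene. Tnfsfm13 had 12 control and 6 IR UMIs, 4 of the control ones in endothelial cells. The level of APRIL RNA is therefore uncertain, and 0 UMIs in 5286 IR cells allows a share of up to 0.0568% of cells with a UMI.

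Cd40lg was a T-cell gene here: T-cells held 23 of 25 control UMIs (92.0%) and 83 of 97 IR UMIs (85.6%), and cycling cells 13 more in the IR library. In the control library it stood at 19.4 CPM (9.29–35.6) in FoxP3+ and helper T-cells, 3.84 CPM in naive-like T-cells and 1.06 CPM, from 1 UMI, in effector CD8+ T-cells. The class with helper T-cells was thus 5.05-fold (1.84–14.0) above naive-like T-cells in the control library and 1.96-fold (1.18–3.20) above them in the IR library. Effector CD8+ T-cells had 0 UMIs in 393 IR cells. Within all T-cells of the IR library, 20 of the 75 cells with Cd40lg also had a UMI of Cd4, where 10.1 would if the genes were independent, and 4 had Cd8a, where 14.2 would. In FoxP3+ and helper T-cells, 3 of 24 IR cells with Cd40lg had Foxp3, the regulatory T-cell factor, beside 4.69 under independence, a difference these counts cannot resolve.

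Lta was sparse, with 14 control and 67 IR UMIs. FoxP3+ and helper T-cells held 4 control UMIs (7.75 CPM, 2.11–19.8) and 21 IR UMIs (17.3 CPM, 10.7–26.4). Cxcr6+ T-cells, a small class, held 5 and 3 UMIs, naive-like T-cells 1 and 25, and B-cells 2 and 11. In the IR library FoxP3+ and helper T-cells exceeded naive-like T-cells 3.36-fold (1.79–6.26) and B-cells 3.30-fold (1.52–7.59). Most cells with Lta had Ltb too: of 45 IR T-cells with a UMI of Lta, 41 had Ltb, where 27.6 would under independence, and of 10 control T-cells 7 had it, where 5.08 would. The IR T-cells had a median of 2583.5 UMIs in cells with Ltb and 2272 in cells without.

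Ltb was the most counted of the 10 genes, with 2314 control and 7452 IR UMIs, and every lymphoid class had it. Among the T-cell, B-cell and NK classes its level in the control library was highest in Cxcr6+ T-cells (74 control and 87 IR cells), a class led by gamma-delta T-cell genes and by the cytokine genes Il17a and Il17f, at 1147 CPM (1018–1287). FoxP3+ and helper T-cells (581 CPM, 517–651) and NK cells (488 CPM, 374–625) followed and did not differ beyond counting error (0.839, 0.628–1.11). B-cells (277 CPM), effector CD8+ T-cells (264 CPM) and naive-like T-cells (235 CPM) formed a lower group, in which effector CD8+ T-cells did not differ from either neighbour, and naive-like T-cells were 0.849 times (0.756–0.953) B-cells. In the IR library the order at the bottom turned, with naive-like T-cells 1.26-fold (1.18–1.36) above B-cells. Acinar cells, which should lack the gene, read 9.09 CPM in the control and 16.8 CPM in the IR cells. The summed level of 5 T-cell markers in acinar cells was 44.8 and 95.1 CPM. Whether free RNA or doublets gave these reads was not tested. T-cells stood 37.7-fold and 43.4-fold above acinar cells in Ltb, or 12.4-fold (8.50–18.9) and 15.7-fold (11.8–21.5) by CPM without abundant genes.

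**Figure D1:**
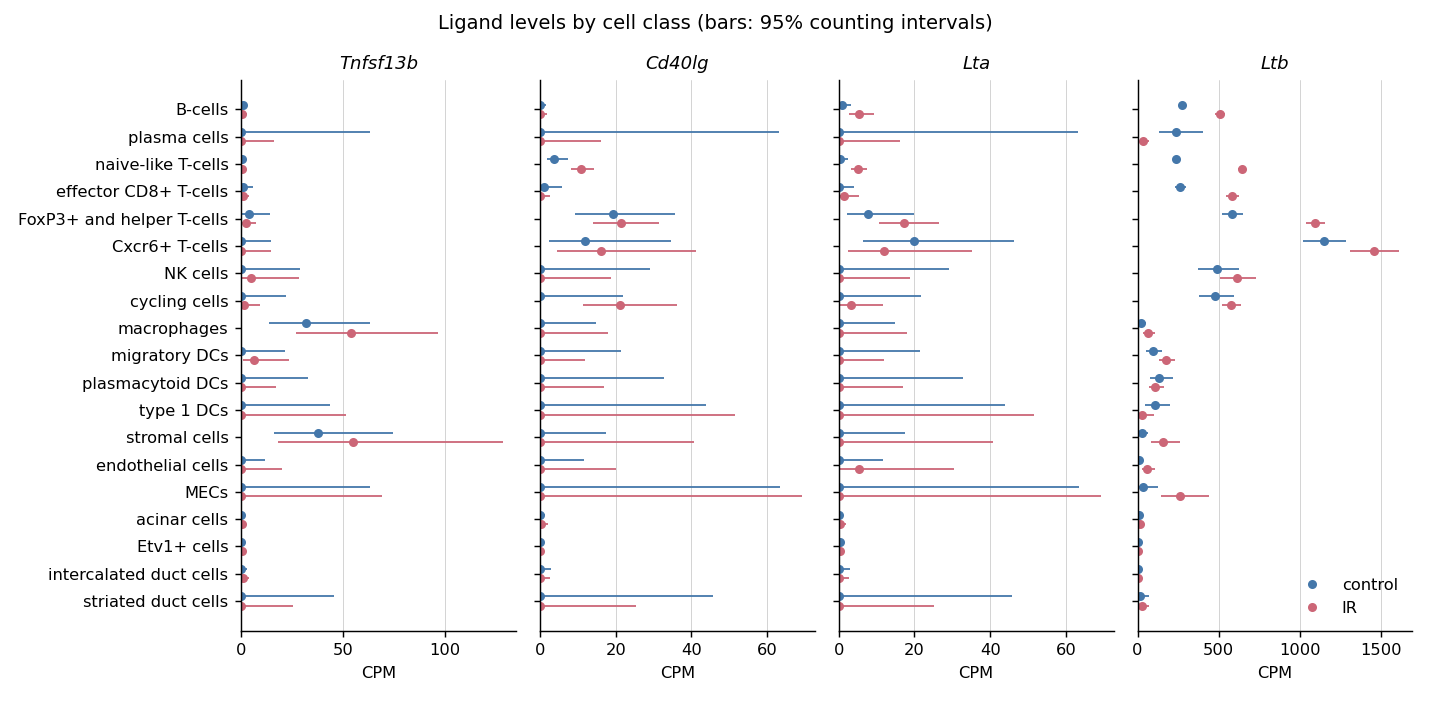
Level of 4 ligand genes in CPM (horizontal axes, scales differ) in 19 cell classes of the control (blue) and IR (red) library. Points are the UMIs of a class added up and bars are 95% counting intervals. Ltb fills the lymphoid classes, Tnfsf13b sits in macrophages and stromal cells, and Cd40lg and Lta are highest in T-cell classes at low levels.

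Tnfrsf13c marked B-cells. They held 1048 of 1114 control UMIs (94.1%) and 749 of 889 IR UMIs (84.3%), at 453 CPM (426–481) and 356 CPM (331–383). That was 73.4-fold (49.5–114) and 78.3-fold (55.8–113) the level of T-cells. In B-cells, 544 of 835 control cells (65.1%) and 411 of 833 IR cells (49.3%) had a UMI. After thinning every cell to 1000 UMIs the shares were 36.5% (33.2–39.9) and 28.5% (25.5–31.8), beside 0.334% and 0.319% in T-cells. Plasma cells had 0 UMIs in 8 control cells and 14 UMIs in 33 IR cells, 60.9 CPM. That was 5.84-fold (3.46–10.7) below IR B-cells, or 2.21-fold (1.31–4.07) by CPM without abundant genes. The summed level of 6 B-cell markers was 719 CPM in control and 962 CPM in IR plasma cells, beside 5591 and 5891 CPM in B-cells. The part of B-cell RNA in the plasma cell value was not tested.

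Tnfrsf13b was spread more widely. The control library had 137 CPM (59.2–270) in plasma cells, 107 CPM (55.0–186) in plasmacytoid DCs and 33.3 CPM (26.2–41.6) in B-cells. The intervals of the first 2 overlap, and both lay above B-cells, 4.12-fold (1.72–8.53) and 3.20-fold (1.59–5.92). In the IR library plasma cells again exceeded B-cells (161 and 51.3 CPM, 3.14-fold, 2.10–4.59), whereas plasmacytoid DCs at 73.3 CPM did not separate from them (1.43, 0.788–2.43). By CPM without abundant genes, plasma cells stood at 525 CPM in the control, beside 115 CPM in plasmacytoid DCs, and were 14.1-fold (5.86–29.1) above B-cells in the control and 8.28-fold (5.54–12.1) in the IR library. Tnfrsf13b also reached FoxP3+ and helper T-cells, with 6 control UMIs (11.6 CPM) and 36 IR UMIs (29.6 CPM), the latter 3.35-fold (2.09–5.34) above naive-like T-cells. In the control library that ratio was 2.10 (0.653–5.91), which includes no difference. The summed level of the 6 B-cell markers in that class was 67.8 CPM in the control, with Ms4a1 at 0, and 79.0 CPM in the IR library, beside 5591 and 5891 CPM in B-cells.

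Tnfrsf17 was almost a plasma cell gene in the IR library. Plasma cells held 5 of 11 control UMIs, 85.6 CPM (27.8–200), and 34 of 35 IR UMIs, 148 CPM (102–207). B-cells had 0 UMIs in 835 and 833 cells, which puts IR plasma cells at least 104-fold higher (at least 274-fold by CPM without abundant genes). In the control library 3 UMIs were in macrophages and 1 each in migratory DCs, neutrophils and cycling cells. Control migratory DCs also held 2156 CPM of the 7 plasma cell markers, against 93.9 CPM in the IR library. All 14 IR plasma cells with Tnfrsf17 had Tnfrsf13b, where 7.21 would under independence, but these were deep cells, whose median was 11836 UMIs, compared with 1385 for plasma cells without it.

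Cd40 was highest in migratory DCs, the class of antigen-bearing cells led by Ccl22 and Fscn1. Its level there was 486 CPM (387–601) in the control and 366 CPM (302–440) in the IR cells, 9.14-fold (6.84–12.2) and 6.11-fold (4.70–7.94) that of B-cells at 53.1 and 59.9 CPM. These 26 and 47 cells, 0.770% and 0.889% of all cells, held 34.7% and 39.8% of Cd40 UMIs. Macrophages with 17 control UMIs (68.2 CPM) and 6 IR UMIs (29.4 CPM) did not separate from B-cells in either library. All 17 and 6 of these came from the deeper macrophage sub-cluster, led by Retnla and Cd209b.

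Ltbr was the receptor with most of its UMIs in epithelial cells. Epithelial cells held 106 of 159 control UMIs (66.7%) and 112 of 140 IR UMIs (80.0%), most of them in Etv1+ cells (71 and 67 UMIs). They also held 10964083 of the 19068309 control UMIs and 8237620 of the 20348028 IR UMIs of all genes. The level of Ltbr was 9.67 CPM in control epithelial cells, close to the 8.34 CPM of all control cells. In the IR library it was 13.6 CPM, beside 6.88 CPM in all cells. Per UMI of the class, though, Ltbr was highest in small classes of the control library. It stood at 86.0 CPM (27.9–201), from 5 UMIs, in MECs (myoepithelial cells), 56.9 CPM (29.4–99.4) in stromal cells, 41.1 CPM (21.9–70.2) in endothelial cells and 40.1 CPM (19.2–73.7) in macrophages, levels that overlap. Control stromal cells stood 8.90-fold (3.94–19.3) above acinar cells at 6.39 CPM, but 2.83-fold (1.255–6.15) by CPM without abundant genes, and in the IR library the ratio of 3.76 (0.725–12.4) includes no difference. By that scaling Etv1+ cells stood at 28.7 and 41.3 CPM, beside 60.1 and 34.9 CPM in stromal cells. Type 1 DCs, few as they were, had 4 UMIs (47.5 CPM) and 6 UMIs (83.7 CPM), and migratory DCs 2 and 0. T-cells had 2 UMIs in 1266 control and 9 in 3038 IR cells, 0.493 and 1.17 CPM.

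**Figure D2:**
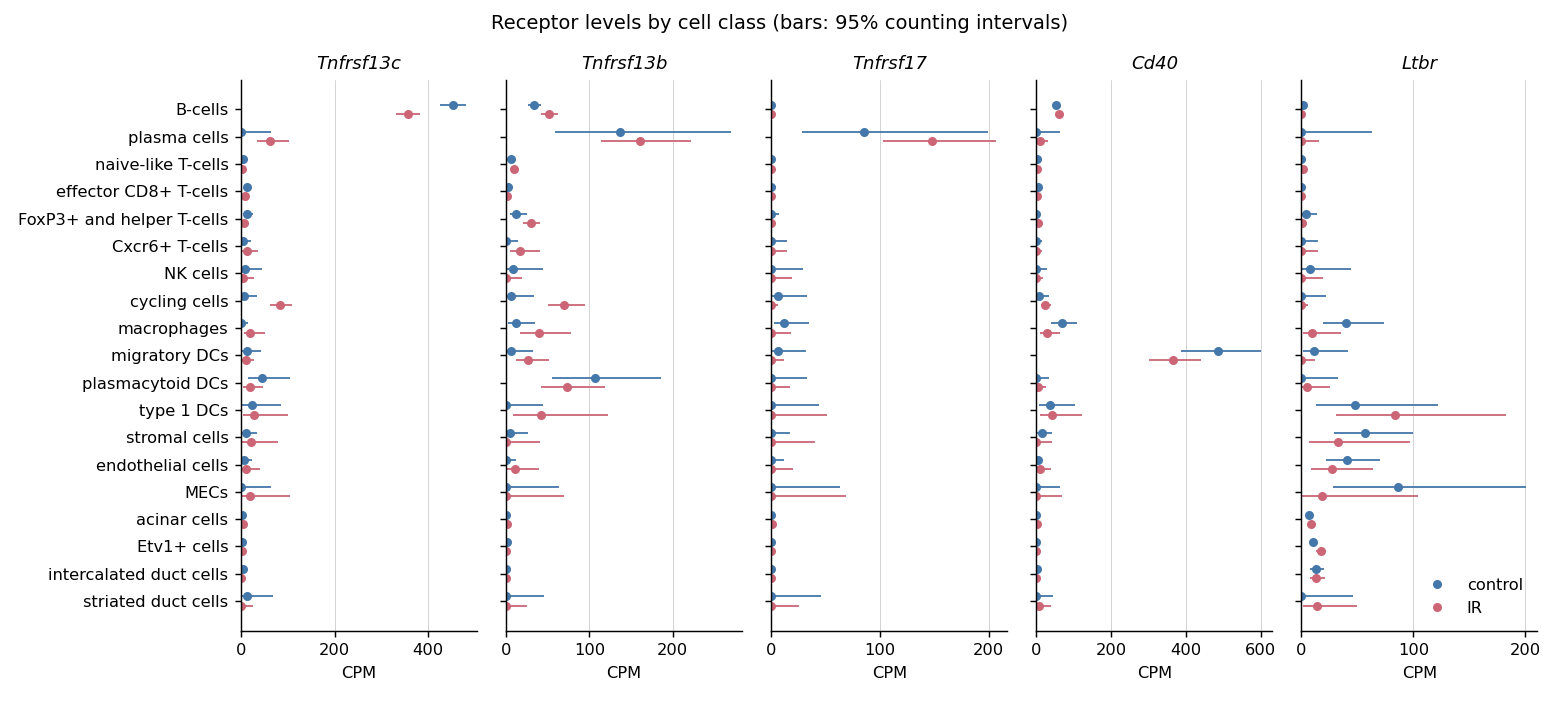
Level of 5 receptor genes in CPM (horizontal axes, scales differ) in the same 19 cell classes of the control (blue) and IR (red) library, as summed UMIs with 95% counting intervals. Tnfrsf13c peaks in B-cells, Tnfrsf13b in plasma cells and plasmacytoid DCs, Tnfrsf17 in plasma cells, Cd40 in migratory DCs, and Ltbr is spread over stromal, endothelial, myeloid and epithelial classes.

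The comparison of IR with control asked how each gene's level differed within a class 10 months after irradiation. A gene was taken as measured in a class where both libraries together had at least 25 of its UMIs, and a ratio of at least 1.5 times in either direction was counted as past a size rule, which is a description and not a test. In B-cells 2 of 4 measured members were higher and 0 lower, where 13.7% of the 8249 measured genes were higher and 4.86% lower. In naive-like T-cells 4 of 4 were higher, beside 19.6% of 9159 genes (3.1% lower). In FoxP3+ and helper T-cells 3 of 4 were higher, beside 17% of 6177 genes (6.43% lower), and in effector CD8+ T-cells the 1 measured, Ltb, was higher, beside 18.3% of 6404 genes (6.28% lower). In migratory DCs the 2 measured were Ltb, higher at 1.93 (1.09–3.60; 16 and 55 UMIs), and Cd40, beside 26.7% of 2368 genes higher and 8.7% lower. The median ratio over all measured genes was 1.10 in B-cells and 1.17 in naive-like T-cells, so ratios are read against a shift above 1. The median over the measured members was 1.34 and 2.79. Lta entered the count of naive-like T-cells with 1 control and 25 IR UMIs, and that of FoxP3+ and helper T-cells with 4 and 21. A sparse gene that reaches 25 UMIs through the IR library tends to a ratio above 1. The counts in these T-cell classes and the 2.79 are therefore not read as a result about the members.

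Ltb was higher in IR in each large lymphoid class. Naive-like T-cells stood at 235 CPM (216–256) in the control and 643 CPM (620.2–665) in the IR cells, a ratio of 2.73 (2.496–2.998). Effector CD8+ T-cells had a ratio of 2.21 (1.92–2.56), FoxP3+ and helper T-cells 1.88 (1.66–2.14; 581 and 1094 CPM), and B-cells 1.84 (1.66–2.03; 277 and 509 CPM). These intervals lie above the class median of all genes. Cxcr6+ T-cells, the class with the highest level, had a ratio of 1.27 (1.08–1.49), but 1.07 (0.917–1.26) with TMM factors, a scaling set by the trimmed mean of all gene ratios, and 1.01 (0.793–1.29) among cells without UMIs of Fos, Jun, Hspa1a or Hspa1b. The ratio was 1.253 (0.915–1.73) in NK cells, 1.20 (0.944–1.55; 81 and 355 UMIs) in cycling cells and 0.826 (0.416–1.69; 15 and 24 UMIs) in plasmacytoid DCs. Etv1+ cells, with 15 and 20 UMIs, had 2.25 (1.09–4.72) at 2.26 and 5.08 CPM, below the acinar level. In acinar cells, with 27 and 46 UMIs, the ratio was 1.85 (1.13–3.10), near that of B-cells. The share of naive-like T-cells with a UMI after thinning went from 18.7% (15.9–21.7) to 40.1% (37.9–42.4), against 1.35% and 2.78% in acinar cells, and cells with at least 2 Ltb UMIs from 14.8% to 35.2%. In B-cells the thinned share went from 19.5% (16.8–22.4) to 34.2% (30.9–37.6). The summed level of the 5 T-cell markers in B-cells was 132 CPM in the control and 248 CPM in the IR cells, against 3060 and 4160 CPM in naive-like T-cells, and its part in the B-cell ratio was not tested.

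Tnfrsf13c was lower in IR B-cells. Its ratio in B-cells was 0.787 (0.715–0.865), short of the size rule, while the 6 B-cell markers summed to 5591 and 5891 CPM. Tnfrsf13b was 1.54-fold (1.14–2.10) higher in IR B-cells and stood at 1.59 (0.841–3.23; 13 and 43 UMIs) in naive-like T-cells. In FoxP3+ and helper T-cells Tnfrsf13b had 6 control and 36 IR UMIs, a ratio of 2.55 (1.06–7.40). It counted as measured in that class through the IR library, which favours a ratio above 1. The 2.55 is therefore not read as a higher level. Cd40 in B-cells was at 1.13 (0.873–1.46), and in migratory DCs at 0.754 (0.563–1.01), intervals that include no difference, but in migratory DCs CPM without abundant genes gave 0.707 (0.529–0.9496) and TMM factors 0.680 (0.508–0.913). Over all B-cells the ratios of these BAFF-binding receptors thus lay on opposite sides of 1, that of Tnfrsf13c short of the size rule. The Tnfrsf13b ratio was not even over the B-cell sub-clusters described below. It was 2.16 (1.29–3.70) in b, 0.829 (0.396–1.67) in a and 1.15 (0.705–1.90) in c. Within B-cells, cells with Tnfrsf13b had Tnfrsf13c about as often as independence gives (41 against 44.3 control cells, 48 against 46.9 IR cells).

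In cycling cells, a class of mixed lineage with 35 control and 121 IR cells, Tnfrsf13c had 1 control and 51 IR UMIs, a ratio of 14.0 (2.40–564). Tnfrsf13b went there from 1 to 43 UMIs, a ratio of 11.8 (2.01–477). The 6 B-cell markers summed to 124 CPM (76.9–190) in control cycling cells, with Ighd at 0, and to 859 CPM (788–936) in IR cycling cells, and the 7 plasma cell markers to 242 and 780 CPM. The 5 T-cell markers summed to 3352 and 3215 CPM. How far the mix of lineages sets the ratio of Tnfrsf13c was not tested.

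Cd40lg and Lta had ratios above 1 over all T-cells, from few control UMIs. Cd40lg had 23 control and 83 IR UMIs there, a ratio of 1.90 (1.19–3.17). Cd40lg in naive-like T-cells had 9 control and 53 IR UMIs, a ratio of 2.84 (1.39–6.54), but in FoxP3+ and helper T-cells, its class of highest level, the ratio was 1.10 (0.515–2.57). Lta over all T-cells had 10 and 51 UMIs, a ratio of 2.69 (1.35–5.94). In FoxP3+ and helper T-cells Lta had 4 and 21 UMIs, a ratio of 2.23 (0.752–8.93), which includes no difference. A sparse gene that counts as measured through the IR library tends to a ratio above 1. Neither Cd40lg nor Lta is therefore read as higher in IR T-cells. Ltbr was 1.59-fold (1.12–2.25) higher in IR Etv1+ cells and 1.41-fold (1.07–1.85) over epithelial cells, beside a median of 1.18 over all genes in Etv1+ cells. With TMM factors the Etv1+ ratio was 1.30 (0.919–1.84), which includes no difference. The depth of Etv1+ cells differed, with medians of 20306 control and 5070.5 IR UMIs. Ltbr in stromal cells had 12 and 3 UMIs (0.581, 0.105–2.15) and in macrophages 10 and 2 (0.245, 0.0261–1.15), too few to tell a direction.

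**Figure D3:**
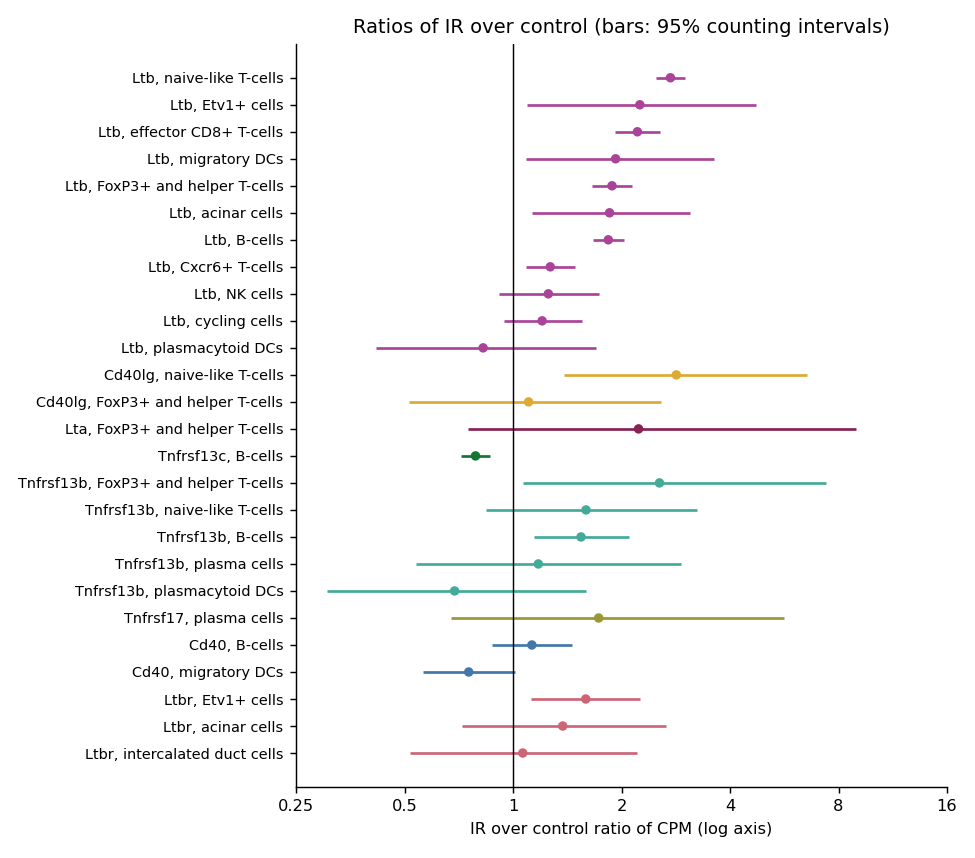
IR over control ratio of CPM (log axis) for the 26 pairs of gene and class that had at least 25 UMIs in all and more than 3 in the control, coloured by gene, with 95% counting intervals and a line at 1. Ltb lies right of 1 in the 4 large lymphoid classes, from 1.84 to 2.73, but also in acinar cells, at 1.85. Tnfrsf13c lies left of 1 in B-cells, at 0.787.

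Several small classes had more Ltb UMIs in the IR library, in few cells. Stromal cells had 6 control and 14 IR UMIs, the latter in 2 of 18 cells, and MECs 2 and 14, the latter in 2 of 25 cells. In IR stromal cells 4 of the 5 T-cell markers were at 0 and the fifth had 1 UMI. The 6 B-cell markers summed to 678 CPM in control and 869.9 CPM in IR stromal cells. Of these, Cd79a went from 19.0 to 198 CPM and Ms4a1 from 19.0 to 33.0 CPM. Most of both sums came from the other markers of the list, which as a set did not rise. Endothelial cells had 3 and 11 UMIs, the latter in 6 of 41 cells. The summed T-cell markers there went from 15.8 CPM to 301 CPM and the B-cell markers from 512 to 684 CPM. Among the B-cell markers, Cd79a went from 9.48 to 131 CPM and Ms4a1 from 6.32 to 82.1 CPM. The other B-cell markers, which held most of both sums here too, did not rise as a set. The part of lymphocyte RNA in these ratios was not tested. Neutrophils had 6 UMIs in 37 control cells and 44 UMIs in 20 of 58 IR cells (3.22, 1.37–9.26), and the T-cell markers there were at 0 in the control and at 1086 CPM in the IR library. Erythroid cells had 13 and 34 UMIs (5.64, 2.90–11.6). Ptprc, a gene of white blood cells, was found in 11 of 23 control and 11 of 19 IR erythroid cells. Plasma cells went the other way, with 14 UMIs in the control, all in 2 of 8 cells, and 8 UMIs in 4 of 33 IR cells.

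The Ltb difference was not even within classes. Naive-like T-cells split into 3 sub-clusters. Sub-cluster a (527 control and 922 IR cells) passed 5 of 6 naive-like markers, but its leading genes by fold were secretory gland genes such as Obp1a and Scgb2b24, beside Lef1. Sub-cluster b (152 and 891 cells) was led by Dapl1, Tagap and Klf2, and sub-cluster c (116 and 284 cells), of low depth with a median of 825.5 UMIs, by Fam101b and Myb. In sub-cluster a, Ltb stood at 220 and 245 CPM, a ratio of 1.12 (0.976–1.28), beside a median of 1.17 over all genes there. In sub-cluster b it stood at 307 and 1098 CPM, a ratio of 3.58 (3.04–4.25), beside a median of 1.13, and in sub-cluster c at 184 and 385 CPM (2.10, 1.46–3.09). The IR library thus had both a larger share of naive-like T-cells in sub-cluster b and a higher level inside it. Cd40lg had 6 and 8 UMIs in sub-cluster a (0.969, 0.295–3.39), 3 and 39 in sub-cluster b (2.93, 0.931–14.8) and 0 and 6 in sub-cluster c. Of the 25 Lta UMIs in IR naive-like T-cells, 20 were in sub-cluster b, which had 0 in the control.

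B-cells split into sub-cluster a (441 and 358 cells, led by Tnfrsf13c, Ebf1 and Cd86), sub-cluster b (288 and 332 cells, led by Fcer2a and Ighd) and sub-cluster c (106 and 143 cells, led by Iglc1, with Plac8, Mzb1 and Bhlhe41). Ltb ratios were 1.48 (1.22–1.80) in a, 1.66 (1.43–1.93) in b and 1.95 (1.62–2.37) in c. Tnfrsf13c lay below 1 in all 3, at 0.847 (0.739–0.971), 0.721 (0.600–0.865) and 0.823 (0.672–1.01), the last with an interval that includes no difference. Tnfrsf13b in sub-cluster b went from 32.3 to 69.7 CPM (2.16, 1.29–3.70), and stood at 0.829 (0.396–1.67) in a and 1.15 (0.705–1.90) in c. Cd40 was at 0.764 (0.515–1.12) in a, 1.53 (0.930–2.55) in b and 2.09 (1.12–4.07) in c.

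Genes of rapid stimulation and stress responses also differed within sub-clusters. In naive-like sub-cluster b, Fos went from 161 to 574 CPM, Jun from 410 to 1401 CPM and Klf2, a factor of resting and recirculating T-cells, from 1830 to 5284 CPM. In sub-cluster a, Jun went from 112 to 124 CPM and Klf2 from 1478 to 1652 CPM, while Cd69, an early activation marker, was at 1.53 (1.22–1.94), Klf6 at 1.38 (1.22–1.56) and Fos at 1.32 (1.03–1.71), and in sub-cluster c Jun from 134 to 279 CPM. Heat shock genes ran the other way, with Hsp90aa1 in naive-like T-cells at 1761 control and 677 IR CPM. Of the 15 genes of a stress response list, 8 were higher and 2 lower by the size rule in naive-like T-cells, 7 and 3 in B-cells, 10 and 2 in effector CD8+ T-cells, and 4 and 5 in FoxP3+ and helper T-cells, beside 13.7% to 19.6% of all measured genes higher and 3.1% to 6.43% lower in these classes. The list's median ratio was 1.66 in naive-like T-cells, 1.45 in B-cells, 1.73 in effector CD8+ T-cells and 1.02 in FoxP3+ and helper T-cells, beside 1.17, 1.10, 1.12 and 1.10 over all genes. The list was chosen with earlier results of these data known. Its counts and medians are therefore a description and no independent support. Among cells with no UMI of Fos, Jun, Hspa1a or Hspa1b, a split chosen after the values were seen, the Ltb ratio was 1.46 (1.248–1.71) in naive-like T-cells, 1.51 (1.29–1.76) in B-cells, 1.38 (1.09–1.75) in effector CD8+ T-cells and 1.66 (1.31–2.12) in FoxP3+ and helper T-cells. Tnfrsf13c in such B-cells was at 481 and 409.6 CPM. Cd40lg in such naive-like T-cells had 4 control and 7 IR UMIs, a ratio of 0.989 (0.252–4.61).

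**Figure D4:**
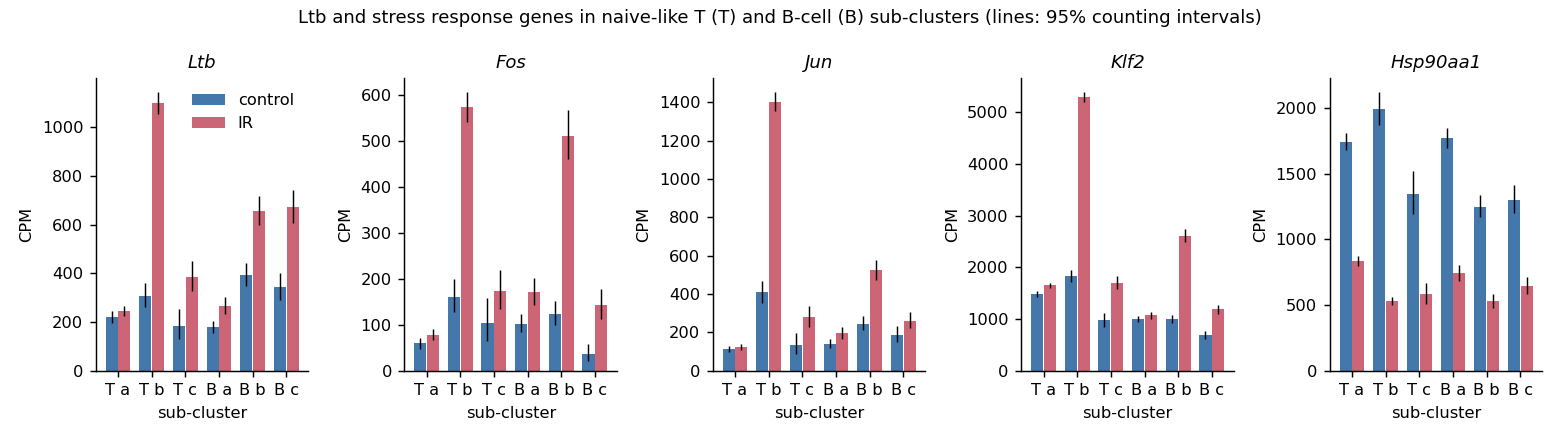
Level in CPM (bars from 0, lines are 95% counting intervals) of Ltb, 3 genes of rapid response or quiescence and the heat shock gene Hsp90aa1 in the 3 naive-like T-cell sub-clusters (T a to T c) and 3 B-cell sub-clusters (B a to B c), control in blue and IR in red. Ltb, Fos, Jun and Klf2 reach their highest IR levels in T b, where Ltb stands at 1098 CPM, and Hsp90aa1 is lower in IR in all 6.

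Cell numbers and levels together set which cells held the RNA. Per 1000 kept cells, Ltb had 685 UMIs (657–714) in the control and 1410 (1378–1442) in the IR cells, in which T-cells made up 57.5% of cells against 37.5%. T-cells held 60.1% (58.0–62.1) of control and 75.3% (74.3–76.3) of IR Ltb UMIs, and B-cells 27.7% and 14.4%. Tnfrsf13c per 1000 cells went from 330 (311–350) to 168 (157–180), with B-cells at 24.7% and 15.8% of cells. Ltbr went from 47.1 (40.0–55.0) to 26.5 (22.3–31.3) as epithelial cells went from 25.1% to 16.1% of cells. These shares reflect the cells that survived dissociation and the filters. B-cells held 59.7% of Tnfrsf13b UMIs in the control and 34.4% in the IR cells, where T-cells held 27.1%, cycling cells 13.7% and plasma cells 11.8%.

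**Figure D5:**
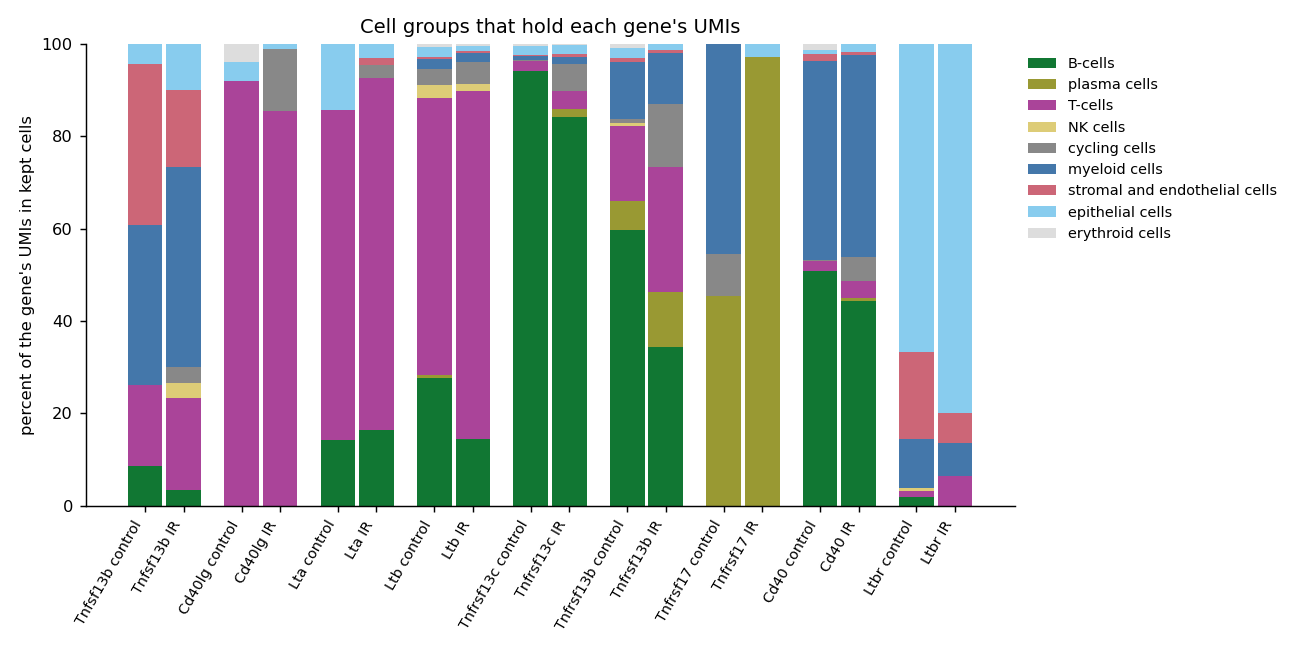
Share of each gene's UMIs (percent of its UMIs in kept cells, vertical axis) held by groups of cell classes, with a control and an IR bar for each of 9 genes. The group of stromal and endothelial cells includes MECs, and Tnfsf13, with 1 UMI, is left out. Ltb shifts toward T-cells and Tnfrsf13c stays with B-cells at 94.1% and 84.3%. Most Ltbr UMIs lie in epithelial cells, which also hold many of the UMIs of all genes.

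Other genes of these pathways were counted with the same size rule. By that rule 19.6% of all measured genes were higher and 3.1% lower in naive-like T-cells, and 13.7% and 4.86% in B-cells. Of 15 other TNF family genes of lymphoid tissue, 8 were measured in naive-like T-cells, with 2 higher and 0 lower and a median ratio of 1.10, below the 1.17 of all genes. Tnf itself, between Ltb and Lta on the chromosome, had 7 and 44 UMIs there (3.03, 1.35–7.97), and Tnfrsf12a, the receptor of TWEAK, 17 and 58 (1.64, 0.944–3.01). In B-cells 3 of the list were measured, with 0 higher and 1 lower. Of 17 NF-kB signalling genes all were measured in B-cells, with 4 higher and 0 lower and a median of 1.03 against 1.10. The 2 with the largest ratios there were Traf6 (1.89, 1.07–3.402) and Birc2 (1.72, 1.40–2.11), a ubiquitin ligase that restrains the NF-kB pathway used by BAFF, CD40 and lymphotoxin receptors. In naive-like T-cells the same list had 3 of 17 higher and 0 lower, near the share of all genes.

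Among 7 genes that set B-cell survival, 6 were measured in B-cells, where 13.7% of all genes were higher and 4.86% lower. Of these 6, 2 were higher and 0 lower, with a median of 1.22 against 1.10. Both were survival proteins of the Bcl-2 family, Bcl2 (46.6 and 74.6 CPM; 1.60, 1.24–2.06) and Bcl2a1d (48.4 and 75.1 CPM; 1.55, 1.21–1.997), while Bcl2l11, which promotes cell death, was at 0.874 (0.767–0.995). Bcl2a1d has near-identical copies, so its reads may be split among them.

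Of 11 lymphoid tissue chemokine and adhesion genes, 1 was measured in Etv1+ cells, the class with the most Ltbr UMIs. Known targets of the lymphotoxin beta receptor are among the 11. In stromal cells, a class looked at after its values were seen, 5 were measured, with 2 higher and 1 lower. These are too few to read as a result about the list. Cxcl13, the chemokine that draws B-cells, had 14 control and 122 IR UMIs there, but all 122 were in 1 of 18 cells, and in MECs 1182 UMIs were in 1 of 17 control cells. Vcam1, an adhesion molecule, had 51 and 82 UMIs, in 12 of 33 and 6 of 18 cells.

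Across 35 units of class and library with at least 20 cells, the genes whose level was most like each member's, by Pearson correlation of log CPM, were listed as a description with no test, since units share libraries and depth. Tnfrsf13c was closest to Cr2 (0.93), a complement receptor of B-cells, and Cd79a (0.91), a part of the B-cell receptor, and Tnfrsf13b to Iglc3 and Pou2af1 (0.86 each), an antibody light chain and a B-cell cofactor. Ltb was closest to Limd2 (0.94) and Ptprcap (0.93), Cd40 to Ankrd33b (0.87) and Rassf4 (0.86), and Cd40lg to Trat1 (0.82), an adaptor of the T-cell receptor, and Nxpe3 (0.80). Ltbr was closest to Vat1 and Camk1 (0.84 each).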

How the data were processed

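The authors assigned reads to cells, aligned them to mm10 and counted UMIs with Cell Ranger 3.0.1 (per the labels, which also name Seurat 3), and the deposited values are raw UMI counts per gene and barcode, 22707876 in 5550 control and 23890757 in 7793 IR barcodes. How cells were told from empty droplets is not given in the sources used here.

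Barcodes under 200 genes or above 5% mitochondrial UMIs were dropped, and the rest were integrated by anchors and clustered in Seurat 5.3.0 (R 4.3.3; 2000 variable genes without the 10 members, 30 components, resolution 0.3, giving 14 clusters). Immune, endothelial and stromal clusters were clustered again (20 components, resolution 0.8), giving 27 clusters and sub-clusters. A name needed at least 3 markers at 2 times the CPM of other cells from at least 5 UMIs. The doublet caller (Scrublet in scanpy 1.11.5) marked 32 control cells (0.947%) and 1 IR cell (0.019%), so it had not worked in the IR library and no call was used. Its scores served only in 1 alternative, where they were ranked over both libraries together. That dropped 139 of 3378 control and 381 of 5286 IR cells. Ratios have exact conditional binomial intervals, sums exact Poisson and shares Clopper-Pearson intervals (scipy 1.17.1, numpy 2.4.6). Limits for 0 UMIs use 3 counts. For likeness, log2(CPM + 10) was used, with units of at least 20000 UMIs and genes of at least 100. Positions are from GENCODE M21.

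All 10 members are named, with their ratios in classes where measured given in the text or the plot of ratios, and each list by at most 2 genes of largest ratio in each direction. The members, lists and markers were chosen with earlier results of these data known. On simulated B-cell counts of 8220 genes, the size rule recovered 100% of 200 genes changed 3-fold and called 8.33% of unchanged ones, and 97% of intervals held the true ratio. A change of 3-fold lies far past the rule of 1.5 times, so recovery of smaller changes is not known from this check. Because the intervals cover counting error only, their coverage here cannot speak to cell-to-cell spread or to the spread between mice. Alternatives were a mitochondrial limit of 10%, at least 500 genes, no integration, members kept in the clustering, dropping the top 6% of doublet scores, CPM without abundant genes, TMM factors (edgeR 4.0.16), other size rules and thinning to 500 UMIs, and, added after seeing the data, cells without stress gene UMIs, single sub-clusters and another clustering seed.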

Additional observations from a re-analysis of the deposited data

Results flagged for a closer look

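Ltb was also higher in barcodes that the main comparison left out, some of which the alternative mitochondrial limit of 10% kept. In the 1260 control and 1858 IR barcodes left out for mitochondrial UMIs above 5%, it stood at 275 and 626 CPM, a ratio of 2.28 (2.07–2.51) and above the level in the control barcodes. Cell types were not assigned to these barcodes, so their ratio is set beside that of all kept cells, 3.02 (2.88–3.16), and lies below it. Ratios within a class could not be given for them. Lta had 1 and 21 UMIs in them. Tnfrsf13c was at 0.941 (0.782–1.13) there, Tnfrsf13b at 1.18 (0.675–2.12) and Cd40lg at 1.64 (0.744–3.87), intervals that include no difference.

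The direction of Tnfrsf13c differed between cell classes. It was 14.0-fold higher in IR cycling cells, from 1 control and 51 IR UMIs, and 0.787 times the control level in IR B-cells, and the intervals of both (2.40–564 and 0.715–0.865) exclude no difference on opposite sides. With 1 library per group the difference between these ratios was not tested. The summed B-cell markers went from 124 to 859 CPM in cycling cells and from 5591 to 5891 CPM in B-cells. How far the mix of lineages sets the ratio in cycling cells was not tested.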

How the results depend on the processing

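No paired analysis was possible because each group is 1 library. The Ltb ratio stayed above 1 in the 4 large lymphoid classes, and Tnfrsf13c in B-cells below 1, under the alternatives run, but in naive-like sub-cluster a alone the Ltb interval (0.976–1.28) includes no difference and its value lies below the median of all genes there (1.17). With TMM factors the Ltb ratio was 2.39 in naive-like T-cells and the Tnfrsf13c ratio 0.713 in B-cells. Among cells with no UMI of Fos, Jun, Hspa1a or Hspa1b, Ltb was at 1.51 in B-cells, 1.46 in naive-like and 1.38 in effector CD8+ T-cells, and Cd40lg in naive-like T-cells turned to 0.989, from 4 and 7 UMIs. By sub-cluster, Ltb was at 1.12, 3.58 and 2.10 in naive-like a to c and at 1.48 and 1.66 in B-cell a and b, Cd40lg turned to 0.969 in naive-like a, Tnfrsf13b was at 0.829 (turned) and 2.16 in B-cell a and b, and Cd40 at 0.764, 1.53 and 2.09 in B-cell a to c. The causes were not tested. Class borders moved with another clustering seed, under which FoxP3+ and helper T-cells held 204 control and 495 IR cells, Cxcr6+ T-cells 46 and 44, and neutrophils 3 and 9, with 34 and 49 cells unnamed. The Ltb ratio was then 2.73 in naive-like T-cells and 1.82 in B-cells, and Tnfrsf13c in B-cells was at 0.786. Genes past the size rule numbered 1130 higher and 401 lower in B-cells and 1793 and 284 in naive-like T-cells. Under the looser rule tried they numbered 2482 and 1091 (B-cells) and 3624 and 778, at 2 times 330 and 91 and 570 and 49, with at least 10 UMIs 1827 and 721 in B-cells and 541 lower in naive-like T-cells, and with at least 100 UMIs 305 and 134 and 694 and 111. Cd40 in migratory DCs and Ltbr in Etv1+ cells could not be given among cells without stress gene UMIs, where few cells were left, nor Ltbr with at least 500 genes, where no class took that name. Without high doublet scores, the class named migratory DCs held 105 control and 223 IR cells. Depth limits all members but Ltb and Tnfrsf13c: with under about 25 UMIs a class, intervals span several-fold.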
